A study of Micropterus salmoides with 24 samples.

Results

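Trunk kidney from largemouth bass kept with Rodeo was set against trunk kidney from bass kept with glyphosate itself. The comparison takes the 4 trunk libraries titled as Rodeo and the 4 titled as glyphosate, 8 of the 24 libraries of the study. The Rodeo group had 10 mg/L of glyphosate equivalent in its water, the glyphosate group had 10 mg/L of glyphosate, and the control group had clean water. All fish were adult males of a single hatchery, exposed for 21 days, and each treatment had 4 tanks (38 L) with 4 fish in each. Which tank a sequenced fish lived in is not labelled, and the p-values therefore measure spread among these libraries alone. The 4 trunk control libraries entered the same fits and are given beside the products, and head kidney libraries were used where stated.

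The trunk kidney of a bony fish holds the nephrons, which in fresh water form a dilute urine and reclaim salts. The head kidney, in front of it, makes blood cells and holds the interrenal cells that secrete corticosteroids. Glyphosate is a herbicide that blocks an enzyme of the shikimate pathway, by which plants and many microbes make aromatic amino acids and which animals lack. Rodeo is a commercial glyphosate product for use on and near water, containing glyphosate as its isopropylamine salt. A comparison at the same nominal glyphosate level asks whether trunk kidney RNA differed between the product and its active ingredient.

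Poly(A) RNA was counted on 78435 assembled contigs, and 0 of their identifiers could be paired with a gene name, so contigs are given by identifier without a role. For the same reason the tissue label could be checked only through contigs picked from control libraries, not through named kidney markers. Trunk-enriched contigs, at least 8-fold higher in trunk than in head controls, took 21.4% to 26.2% of counts in the Rodeo libraries and 20.7% to 27.2% in the glyphosate libraries. Head-enriched contigs, chosen the other way round, took 0.579% to 0.687% in the Rodeo libraries and 0.325% to 0.625% in the glyphosate libraries. The Rodeo libraries held 22259411 to 27386031 counts, the glyphosate libraries 22957354 to 25694573 and the trunk controls 22312688 to 29858387.

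Several trunk libraries were most alike to a head library of another treatment label when trunk and head kidney were matched. No label says which trunk and head libraries came from the same fish, so what a match means was not tested. In both tissues alike, 49 contigs split the libraries into high and low ones, more than 3 apart on the log2 scale (on/off contigs). Over these contigs, 8 of 144 trunk and head pairs were alike for 95.9% to 100% and the other 136 for at most 87.8%. In 0 of the 8 matched pairs did the treatment labels of the trunk and the head library agree. Trunk Rodeo 1 matched head control 3, trunk Rodeo 2 matched head control 4 and trunk Rodeo 4 matched head glyphosate 1. Trunk glyphosate 1 matched head Rodeo 3 and trunk glyphosate 4 matched head control 2. Trunk control 1 matched head glyphosate 3, trunk control 2 matched head glyphosate 4 and trunk control 3 matched head Rodeo 1. Control libraries of both tissues are thus among those matched, and their labels are in doubt if a match marks the same fish. Differences from controls, and the tissue lists taken from controls, may not be independent of the product libraries. Trunk Rodeo 3, trunk glyphosate 2 and trunk glyphosate 3 had no match. No library was moved. The named contigs and the main contig lists are given with all 8 libraries and with these 3 unmatched ones. Counts of calls in the 3 are not given, as Rodeo 3 is the only Rodeo library among them.

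No contig differed between the Rodeo and the glyphosate trunk libraries past an adjusted p of 0.05 in edgeR's quasi-likelihood test with Benjamini-Hochberg adjustment (0 of 43072 contigs tested, or 0%). The smallest adjusted p was 0.101, shared by 1 contig higher and 10 lower with Rodeo. Before adjustment, 3294 contigs (7.65%) had a p under 0.05, of which 1278 (2.97%) were higher and 2016 (4.68%) lower with Rodeo. That split depended on the scaling. With library totals in place of TMM factors the median log2 fold change of all tested contigs moved to 0.42, against 0.03 with TMM, and 3355 contigs were then higher and 643 lower. limma-voom called 0 contigs. DESeq2 called 374 of the 53006 to which it gave an adjusted p (0.706%), 47 higher (0.0887%) and 327 lower (0.617%).

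The count of 0 rested on single libraries as well. Without trunk glyphosate 1 edgeR called 38 of 45054 contigs, 2 higher and 36 lower, and without trunk Rodeo 3 it called 1 of 45282, higher. Of these 38, 37 had also been tested over all 12 libraries, and glyphosate 1 lay between the ranges of the Rodeo libraries and of the other glyphosate libraries for 23. For 10 it lay among the Rodeo libraries, for 3 among its own group and for 1 elsewhere. In the 3 unmatched libraries, with the unmatched trunk control 4, the lone Rodeo library could only be taken to vary as the glyphosate libraries did. Counts of calls in them could not be read as differences and are not given. With the replicate number as a block over the 12 trunk libraries edgeR called 1 of 43072, contig25608, named after its values were seen. That contig had 0 counts in all 4 Rodeo libraries and in glyphosate 1, against 16.8, 20.1 and 14.8 CPM in glyphosate 2, 3 and 4 (CPM are counts scaled to a common library size). In trunk controls it stood at 0, 12.6, 9.13 and 11.8 CPM, so the first-numbered library of every group lacked it. Its edgeR adjusted p was 0.0318 with the block and 0.26 without it.

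Among contigs with a mean of at least 1 on the log2 CPM scale, isotig75858 had the smallest p of those higher with Rodeo. Its place here depends on the controls in the fit. With the 8 libraries alone it did not pass the filter on low counts and was not tested. It stood at 4.30, 5.28, 0.173 and 7.48 CPM in Rodeo libraries 1 to 4, against 0.073, 0.0971, 0 and 0 CPM in glyphosate libraries 1 to 4. Trunk controls held 7.35, 2.97, 6.56 and 6.36 CPM. The glyphosate libraries were thus the low ones, together with Rodeo 3, which had 4 counts and still lay above all of them. Over the groups there were 451 counts with Rodeo and 4 with glyphosate, a TMM-scaled ratio of 86.9 (95% interval 33.7 to 320, exact binomial, counting error only). The fitted log2 fold change was 6.35 (95% interval 4.13 to 8.56; edgeR adjusted p = 0.101). The log2 difference from controls was -0.43 for Rodeo (SE 0.717; edgeR adjusted p = 0.984) and -6.78 for glyphosate (SE 1.04; edgeR adjusted p = 0.324). Without Rodeo 3 the log2 fold change between the products was 6.74 (edgeR adjusted p = 0.00678). In the unmatched libraries, where Rodeo 3 is the sole Rodeo library, it was 1.66 (SE 1.58; edgeR adjusted p = 1). The contig is trunk-enriched, and it was also one with an on/off pattern over the trunk libraries. Head kidney had 0 counts in all libraries except head glyphosate 3, with 4. As the tissue was sequenced whole, fewer cells of a type and less RNA per cell cannot be told apart for any contig.

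isotig89478_0 came next among those higher with Rodeo, and 2 libraries carried it. Its level was 15.9, 13.7, 0.431 and 0.977 CPM in Rodeo libraries 1 to 4, against 0.146, 0, 0 and 0.284 CPM in glyphosate libraries 1 to 4. Trunk controls held 1.23, 0.458, 0.214 and 0.807 CPM. The Rodeo and glyphosate libraries did not overlap, but Rodeo 3 and 4 lay within the range of the controls. The TMM-scaled ratio of 923 counts with Rodeo to 8 with glyphosate was 89.0 (95% interval 45.0 to 207, exact binomial, counting error only). The fitted log2 fold change was 6.19 (95% interval 3.44 to 8.95; edgeR adjusted p = 0.179), and in the unmatched libraries 6.36 (SE 3.13). That second size leans on the floor, with 10 counts in Rodeo 3 against 0 in glyphosate 2 and in glyphosate 3. No head kidney library had a count of it, 0 in all 12.

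LMB_Assem.6616.C1 had the smallest p of the contigs lower with Rodeo, and its Rodeo libraries were close together. It stood at 10.3, 10.4, 9.36 and 8.21 CPM in Rodeo libraries 1 to 4, against 36.6, 85.1, 34.5 and 72.0 CPM in glyphosate libraries 1 to 4. Trunk controls held 47.7, 50.8, 30.2 and 22.1 CPM. The Rodeo libraries lay below every glyphosate and every control library, and the glyphosate range overlapped that of the controls. The log2 fold change between the products was -2.58 (SE 0.356, 95% interval -3.34 to -1.81; edgeR adjusted p = 0.101). The log2 difference from controls was -1.98 for Rodeo (SE 0.348; edgeR adjusted p = 0.16) and 0.60 for glyphosate (SE 0.336; edgeR adjusted p = 0.525). The log2 fold change between the products in the unmatched libraries was -2.69 (SE 0.926; edgeR adjusted p = 0.487). Leaving out glyphosate 1 gave -2.74 (edgeR adjusted p = 0.0166). Levels in head kidney averaged 46.0 ± 8.48 CPM with Rodeo, 49.8 ± 7.59 with glyphosate and 51.4 ± 22.9 in controls (SD, n = 4 each). The head log2 fold change between the products was -0.11 (SE 0.273; edgeR adjusted p = 0.948), and trunk minus head was -2.43 (SE 0.456; edgeR adjusted p = 0.0991).

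LMB_Assem.11835.C1 was the other contig taken from those lower with Rodeo. It stood at 0.438, 0.3, 0.518 and 0.977 CPM in Rodeo libraries 1 to 4, which is 10 to 20 counts a library, against 6.82, 3.54, 7.01 and 7.02 CPM in glyphosate libraries 1 to 4. Trunk controls held 5.55, 2.68, 2.6 and 1.27 CPM. Each Rodeo library lay below each control, and 3 of the 4 glyphosate libraries lay above each control. The log2 fold change between the products was -3.46 (SE 0.525, 95% interval -4.58 to -2.33; edgeR adjusted p = 0.101). It was -2.44 for Rodeo against controls (SE 0.508; edgeR adjusted p = 0.385) and 1.01 for glyphosate against controls (SE 0.472; edgeR adjusted p = 0.476). In the unmatched libraries the products differed by -3.35 (SE 1.31; edgeR adjusted p = 0.926), and without glyphosate 1 by -3.40 (edgeR adjusted p = 0.0481). Head kidney held 0.923 ± 1.06 CPM with Rodeo, 0.0806 ± 0.108 with glyphosate and 1.10 ± 1.44 in controls (SD, n = 4 each), and trunk minus head was -6.72 (SE 1.29; edgeR adjusted p = 0.0991). That difference leans on head counts near the floor, 37, 11, 4 and 3 in head Rodeo libraries 1 to 4 and 0, 0, 2 and 5 in head glyphosate libraries 1 to 4. The contig was not tested in the head fit. Both products were set against the same 4 controls, so the differences from controls are not independent of each other. DESeq2 called all 4 named contigs, with adjusted p of 1.64e-06 for isotig75858, 0.00113 for isotig89478_0 and 1.21e-07 for each LMB_Assem contig. Without the filter on low counts edgeR called isotig75858 and LMB_Assem.6616.C1 (adjusted p = 0.0487 for both). For all 4 contigs the direction was the same in every setting in which the contig was tested and with every trunk library left out in turn. The 4 were chosen by their p in this comparison and their groups did not overlap, so a stable direction was largely built in.

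**Figure D1:**
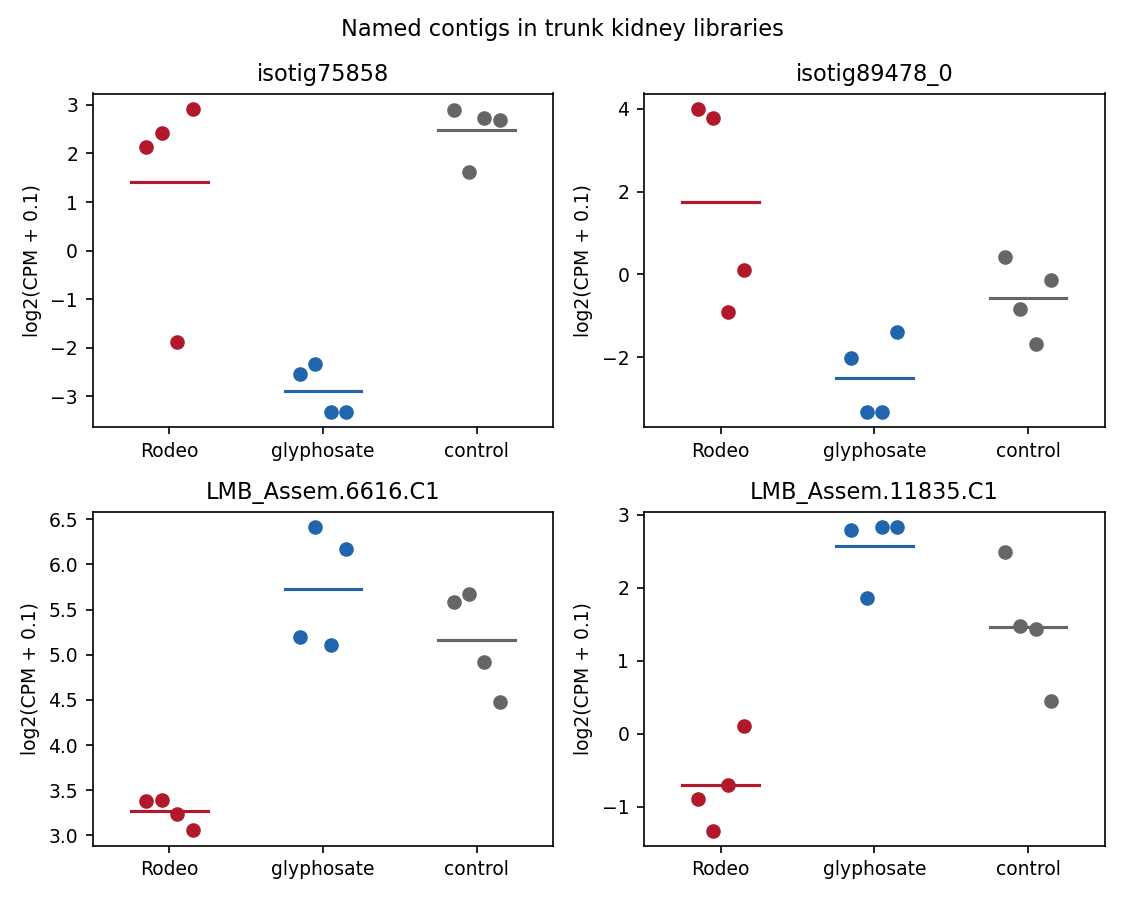
Levels of the 4 named contigs in each trunk library, as log2 of CPM plus 0.1, for Rodeo, glyphosate and control, with a line at the mean of each group's log2 values. No Rodeo library overlaps a glyphosate library in any of the 4, but Rodeo 3 lies close to the glyphosate libraries for isotig75858 and for isotig89478_0.

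Most contigs could not be shown to differ, nor to be alike. The 95% interval of the log2 fold change reached a median of 1.09 to either side of the estimate, and it lay wholly within 1 on either side of 0, that is within 2-fold, for 9003 contigs (20.9%). It lay wholly beyond 2-fold for 66 contigs higher and 293 lower with Rodeo, of 43072 tested. These intervals were taken contig by contig, with no adjustment for the number tested, and edgeR called 0 of these contigs after adjustment. By fitted size alone, 3681 contigs were more than 2-fold higher and 2475 lower, 482 and 668 passed 4-fold, and 44 and 86 passed 16-fold. With TMM scaling the direction thus shifted with size, from more contigs higher with Rodeo at 2-fold to more contigs lower at 16-fold. The groups did not overlap for 990 contigs higher (2.3%) and 815 lower with Rodeo (1.89%), 1805 in all (4.19%). Among those more than 16-fold apart, the groups did not overlap for 11 of the 44 and 28 of the 86.

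**Figure D2:**
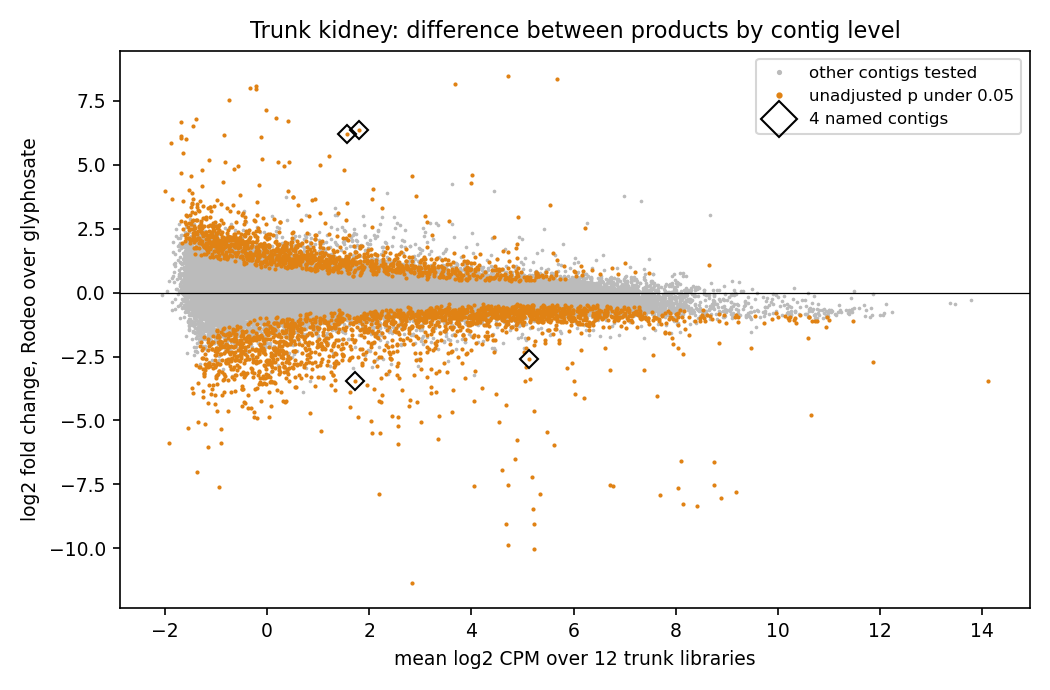
Log2 fold change of Rodeo over glyphosate for each of the 43072 tested contigs, against its mean log2 CPM over the 12 trunk libraries, with TMM scaling. Contigs with an unadjusted p under 0.05 are coloured and the 4 named contigs ringed. The most abundant contigs lie mostly below 0, and scattered contigs lie beyond 16-fold at all but the highest levels.

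With TMM scaling, abundant contigs were on balance lower with Rodeo than with glyphosate and rare ones higher, although none passed the adjusted threshold. Below a mean of 0 on the log2 CPM scale, 3.81% of 12463 contigs were higher and 2.78% lower with Rodeo at an unadjusted p under 0.05, and the median log2 fold change was 0.27. Between 0 and 2 the shares were 3.72% higher and 3.95% lower of 11499 contigs, and between 2 and 5 they were 2.44% higher and 5.23% lower of 13412. At 5 or above, 0.842% of 5698 contigs were higher and 9.02% lower, with a median log2 fold change of -0.22. Precision was best for these abundant contigs, and their interval lay within 2-fold for 48.8%, against 0.016% of the rarest class. At that level 29 contigs were more than 2-fold higher and 243 lower with Rodeo.

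**Figure D3:**
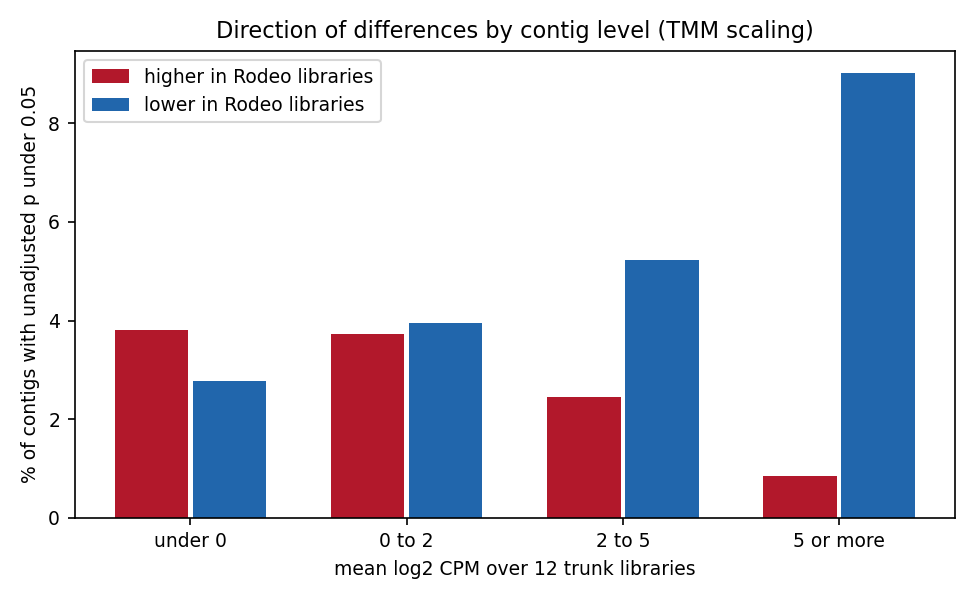
Share of tested contigs with an unadjusted p under 0.05 that were higher (left bar of each pair) or lower (right bar) in the Rodeo libraries, in 4 classes of mean log2 CPM, with TMM scaling. The share lower grows to 9.02% in the most abundant class while the share higher shrinks to 0.842%. With library totals alone the split over all classes turns round, to 3355 higher and 643 lower.

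The 100 most abundant contigs of the trunk controls were the clearest case. Their median log2 fold change was -0.75, with quartiles of -0.88 and -0.60 and a range of -3.46 to 3.05, and 96 of 100 were lower with Rodeo. With library totals alone the median was -0.26 and 84 were lower. Of the 100, 15 had an unadjusted p under 0.05, all of them lower with Rodeo. The share was 7.65% of all tested contigs. It was 9.86% of those averaging 5 or above on the log2 CPM scale (9.02% lower and 0.842% higher). For none of the 100 were the groups apart, with 0 not overlapping, and edgeR's smallest adjusted p was 0.268. The overlap can be followed in the medians by library, taken relative to the mean of controls. These were -0.26, 0.04, 0.49 and 0.59 on the log2 scale in Rodeo libraries 1 to 4, 0.07, 1.03, 0.996 and 1.65 in glyphosate libraries 1 to 4, and 0.55, 0.45, -0.83 and -0.21 in controls 1 to 4. Glyphosate 2, 3 and 4 lay above all other trunk libraries, and glyphosate 1 lay among the Rodeo libraries. The median of the list was -0.98 without glyphosate 1, -0.47 without glyphosate 4 and -0.51 in the unmatched libraries.

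Head-enriched contigs were on balance higher with Rodeo. Of 1575 such contigs 1061 passed the filter on low counts, 69.2% of these were fitted higher, and the median log2 fold change was 0.32, against 52.1% and 0.03 over all tested contigs. Rare contigs in general also leaned higher with Rodeo. Their median was 0.27 under a mean of 0 on the log2 CPM scale and 0.13 between 0 and 2. Whether the head-enriched list differs from other contigs of like level was not tested. In the unmatched libraries the head-enriched median was 0.36. At an unadjusted p under 0.05, 49 head-enriched contigs were higher and 23 lower with Rodeo. That is 6.79% against 7.65% of all tested contigs, and 0 passed the adjusted threshold in edgeR. By library the median difference from the mean of controls was 0.16, 0.29, 0.24 and 0.14 on the log2 scale in Rodeo libraries 1 to 4. It was 0.18, -0.07, -0.37 and -0.54 in glyphosate libraries 1 to 4 and -0.41, 0.20, -0.14 and 0.42 in controls 1 to 4. The Rodeo libraries were tightly grouped inside the span of the controls, and glyphosate 1 again lay with them. With 0 counts in all 4 libraries stood 39 of the 1575 contigs with Rodeo, 52 with glyphosate and 17 in controls. Which head kidney cells these contigs mark is not known for unnamed contigs, and their part in other differences was not tested.

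Trunk-enriched contigs showed little shift. All 4984 were tested, the median log2 fold change was -0.08 with quartiles of -0.48 and 0.33, and 44.6% were higher with Rodeo. With library totals alone their median turned to 0.33, below the 0.42 of all tested contigs in that setting, and in the unmatched libraries it was -0.12. At an unadjusted p under 0.05, 145 were higher and 337 lower with Rodeo (9.67% together, against 7.65% of all tested contigs). Of the 3 kinds of identifier, isotig contigs had 444 higher and 1085 lower at that level out of 16668 tested (9.17% together). LMB_Assem contigs had 568 higher and 689 lower out of 19876 (6.32%), and contigs named contig had 266 higher and 242 lower out of 6528 (7.78%). Over all tested contigs the share was 7.65%, with 2.97% higher and 4.68% lower. No contig of these lists passed the adjusted threshold in edgeR (0 in each).

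None of the 7 measures taken over the whole library passed an unpaired exact test after adjustment. With 4 libraries a group that test allows no p under 0.0286, so a single measure could not pass after adjustment over 7. The 6 taken library by library did not pass with same-numbered libraries as pairs either. There 4 pairs allow no p under 0.125 in an exact sign-flip test. At an equal depth of 22259411 counts, Rodeo libraries 1 to 4 had a count for 62535, 62073, 59456 and 55721 contigs, against 63095, 54826, 54393 and 46085 in glyphosate libraries 1 to 4. The means were 59946 ± 3126 with Rodeo, 54600 ± 6947 with glyphosate and 62031 ± 3519 in controls (SD, n = 4 each; exact two-sided permutation p = 0.229 between the products, 0.4 after adjustment over 7 measures). Glyphosate 4 held the fewest contigs of all trunk libraries, and glyphosate 1 held more than any Rodeo library. The 100 most abundant contigs of controls took 17.7%, 21.0%, 23.97% and 23.7% of counts in Rodeo libraries 1 to 4, against 20.4%, 32.7%, 25.9% and 32.9% in glyphosate libraries 1 to 4. The mean share was 21.6% ± 2.93 with Rodeo, 27.98% ± 6.02 with glyphosate and 20.8% ± 4.61 in controls (SD, n = 4 each; exact two-sided permutation p = 0.143, adjusted 0.333).

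The mean log2 CPM of head-enriched contigs was -0.25 ± 0.06 with Rodeo, -0.64 ± 0.31 with glyphosate and -0.35 ± 0.35 in controls (SD, n = 4 each). The difference of 0.39 had an exact two-sided permutation p of 0.0571 (adjusted 0.333), where the smallest p that 4 against 4 libraries allow is 0.0286. Trunk-enriched contigs stood at 3.40 ± 0.06 with Rodeo, 3.37 ± 0.09 with glyphosate and 3.47 ± 0.16 in controls on that scale (SD, n = 4 each; exact two-sided permutation p = 0.657). The share of counts on LMB_Assem contigs was 75.2% ± 0.523 with Rodeo and 75.2% ± 1.14 with glyphosate (SD, n = 4 each; exact two-sided permutation p = 0.886). Contigs with an on/off pattern over the head libraries averaged -0.46 ± 0.32 with Rodeo and -0.46 ± 0.17 with glyphosate on the log2 CPM scale (exact two-sided permutation p = 1). Taken as same-numbered pairs, Rodeo was higher than glyphosate in 4 of 4 pairs for head-enriched contigs, by 0.03, 0.35, 0.50 and 0.68 on the log2 scale. It was lower in 4 of 4 pairs for the share of the 100 most abundant contigs, with differences of -2.65, -11.7, -1.98 and -9.18 percentage points. Each gave p = 0.125 in an exact two-sided test over sign flips (adjusted 0.375 over 6 measures), the smallest that 4 pairs allow.

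**Figure D4:**
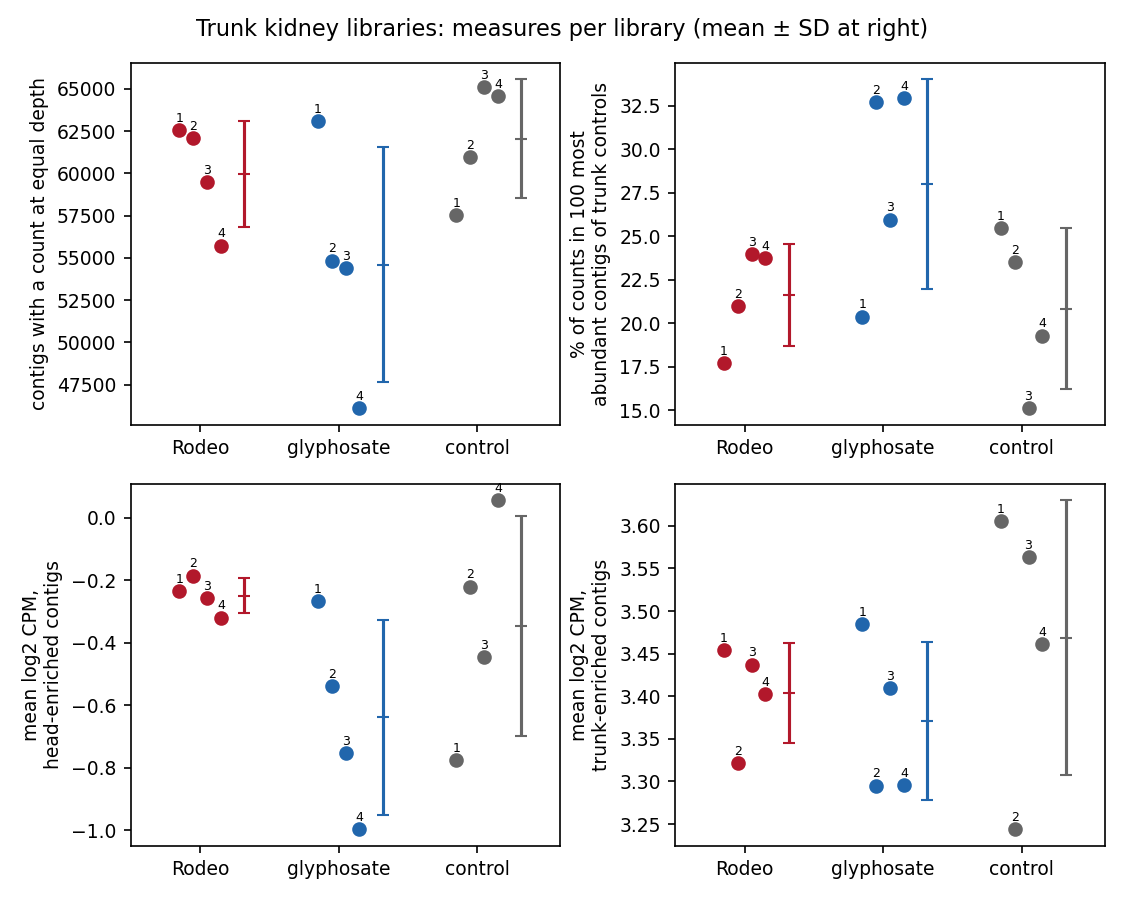
Measures of each trunk library in the Rodeo, glyphosate and control groups, with replicate numbers at the points and the mean ± SD (n = 4) at the right of each group. Panels give contigs with a count at equal depth, the percent of counts in the 100 most abundant contigs of controls, and the mean log2 CPM of head-enriched and of trunk-enriched contigs. Glyphosate 1 sits near or among the Rodeo libraries in the first 3 panels, and glyphosate 4 sits farthest from them there. The vertical axes do not start at 0.

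Across all tested contigs the glyphosate libraries were less alike than the Rodeo libraries, which was not put to a test. The biological coefficient of variation fitted within each group was 0.487 for Rodeo, 0.651 for glyphosate and 0.51 for controls. It stayed between 0.604 and 0.692 when any glyphosate library was left out, and between 0.448 and 0.505 when any Rodeo library was. The root mean square difference of log2 CPM between libraries averaged 1.12 within Rodeo, 1.47 within glyphosate, 1.13 within controls and 1.34 between Rodeo and glyphosate. Rodeo and control libraries were 1.13 apart on average and glyphosate and control libraries 1.36. The mean distance between the products exceeded that within them by 0.05 (n = 4 each; exact permutation p = 0.143, one-sided for a larger excess, adjusted 0.333), and the sign of this turned without Rodeo 1 or without Rodeo 2. Glyphosate 1 was on average 1.46 from its own group and 1.07 from the Rodeo libraries, with Rodeo 1 nearest at 0.996. Glyphosate 4 was 1.56 from its own group and 1.68 from the Rodeo libraries, the largest distances of the 8.

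On the first principal component of the 8 libraries, with 33.8% of the variance, Rodeo libraries 1 to 4 stood at -104.1, -89.7, -38.3 and -21.7. Glyphosate libraries 1 to 4 stood at -85.5, 43.8, 53.6 and 241.9, so glyphosate 1 lay inside the Rodeo range and the other 3 outside it. Trunk controls, projected onto this component, fell at -17.5, -28.1, -91.6 and -80.3, overlapping the Rodeo libraries. The second component, with 18.5%, set glyphosate 3 at 164.7 apart from glyphosate 2 at -118.9, with all Rodeo libraries between them.

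**Figure D5:**
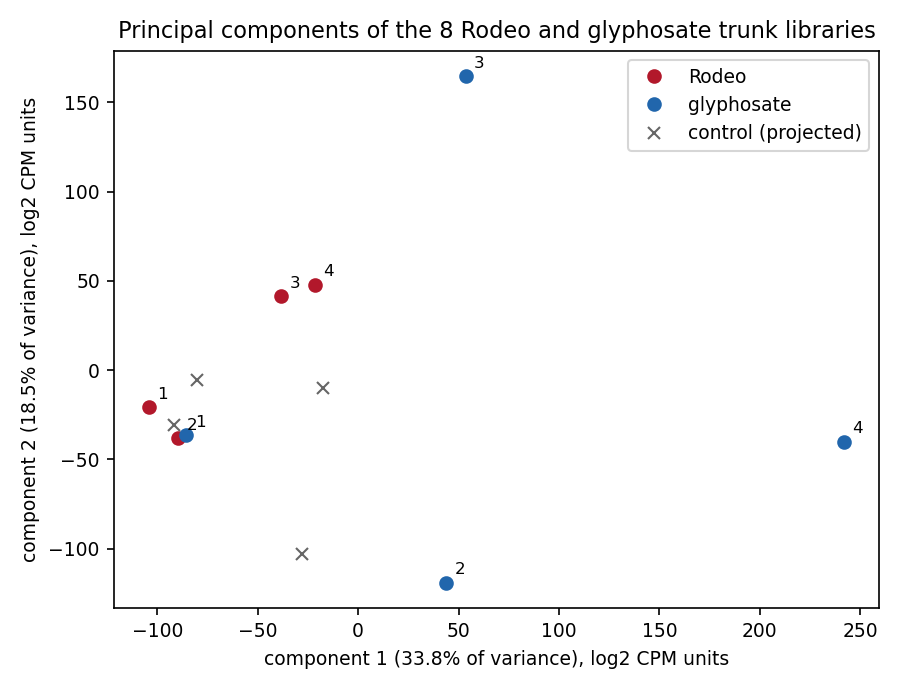
First and second principal components of log2 CPM over the 8 Rodeo and glyphosate trunk libraries, numbered by replicate, with the 4 trunk controls projected as crosses. Glyphosate 1 lies beside Rodeo 2, and the other glyphosate libraries are spread over the right side, glyphosate 4 farthest at 241.9 on the first component.

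On/off contigs were prominent among the largest differences, and glyphosate 4 was often the highest library there. Of the contigs with a mean of at least 1 on the log2 CPM scale, 67 differed by more than 16-fold, 13 higher and 54 lower with Rodeo. Contigs with an on/off pattern over the head libraries, which the comparison of trunk libraries did not use, made up 20 of the 67 (29.9%) against 96 of 24209 tested at that level (0.397%). As 5 of the 8 trunk libraries matched a head library, that list may not be independent of the trunk libraries. The groups did not overlap for 9 of the 67, against 4.19% of all tested contigs, and size alone had chosen these 67. For the 54 that were lower with Rodeo, glyphosate 4 was the highest glyphosate library in 37, glyphosate 2 in 8, glyphosate 3 in 6 and glyphosate 1 in 3. Rodeo 4 was the highest Rodeo library in 8 of the 13 that were higher. A like imbalance stood in the DESeq2 calls, of which 328 of 374 had also been tested in edgeR, all 328 with an unadjusted edgeR p under 0.05. Glyphosate 4 was the highest library for 149 of the 286 that were lower with Rodeo, glyphosate 3 for 74, glyphosate 2 for 58 and glyphosate 1 for 5. How often each library was the highest over all tested contigs was not counted, so these library counts have no background. The groups did not overlap for 256 of the 328, 29 higher and 227 lower with Rodeo, against 4.19% of all tested contigs. A test of the same groups had chosen the 328, so a high share is built in.

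Contigs present in every library of a product and absent from those of the other were few. At equal depth 162 of 78435 contigs had at least 1 count in all 4 Rodeo libraries and 0 in the glyphosate libraries, and 42 the reverse. The glyphosate libraries held fewer contigs at that depth in any case, with a mean of 54600 against 59946 with Rodeo. The part of that shortfall in the imbalance was not tested. With at least 10 counts in each library of a product and 0 in the other, there were 0 contigs either way. Contigs found in 1 of the 8 libraries alone numbered 782, 879, 516 and 362 in Rodeo libraries 1 to 4 and 796, 354, 375 and 216 in glyphosate libraries 1 to 4.

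Head kidney, by its labels as given, offered the same comparison in libraries that the trunk fit did not use. Over the on/off contigs, however, head glyphosate 1 matched trunk Rodeo 4 and head Rodeo 3 matched trunk glyphosate 1. The head comparison may therefore not be independent of the trunk one, and directions in head kidney cannot serve as a check on those in trunk. There edgeR called 0 of 38656 contigs (0%) between Rodeo and glyphosate, with 3538 at an unadjusted p under 0.05 (9.15%), 1935 of them higher (5.01%) and 1603 lower with Rodeo (4.15%), and DESeq2 called 147 (0.369%). Of 555 contigs higher with Rodeo in trunk kidney at an unadjusted p under 0.05, with a mean of 1 or more on the log2 CPM scale, 446 were tested in head kidney. Among these 12 were higher and 17 lower with Rodeo at that p in head kidney (6.5% together), and 44.4% went in the trunk direction. For the 1159 tested of the 1397 that were lower in trunk, 101 were lower and 92 higher (16.7% together), and 43.8% went in the trunk direction. The trunk direction was followed by 53.3% of all contigs fitted higher in trunk at that level and by 45.0% of those fitted lower. Of the 9150 fitted higher and tested in head kidney, 691 were higher and 381 lower there at that p (11.7% together). Of the 11841 fitted lower, 740 were lower and 1056 higher (15.2% together). The difference of effects, trunk minus head, passed the adjusted threshold in edgeR for 0 of 52407 contigs (0%), with 5574 (10.6%) at an unadjusted p under 0.05 and 329 called by DESeq2 (0.646%).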

How the data were processed

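The deposited values are whole-number read counts per contig, not normalized, and contigs missing from a library's list were set to 0. The tools named per the submitters' processing notes are edgeR, DESeq, SAMtools and cutadapt, while aligner, counting step and use of strand are not given. Reads of near-identical contigs may be shared among them, which leaves single values uncertain to that extent. No sequence or gene name could be matched (0 of 78435 identifiers). The 12 trunk libraries entered one edgeR 4.0.16 fit under R 4.3.3 with TMM factors and filterByExpr, and Rodeo minus glyphosate was tested by quasi-likelihood with p-values adjusted after Benjamini-Hochberg (threshold 0.05). Alternatives used DESeq2 1.42.0 on all contigs with a count, limma 3.58.1 (voom), other scalings, filters and left-out libraries. Fits were also run on simulated counts with planted differences and the same spread in every group. Those runs did not test unequal spread or on/off contigs. CPM are TMM-scaled, log2 CPM used a prior count of 2, and an SE is the log2 fold change divided by the square root of F. The head fit used the 12 head libraries and the trunk minus head difference all 24. Tissue lists came from control libraries and required a mean of at least 2 CPM, an 8-fold difference and no overlap. On/off contigs had at least 2 libraries on each side and a mean of at least 1.5 log2 CPM on the upper side. Libraries were matched where each was the other's best partner at 90% or more. The text names the smallest p values, 2 contigs each way, among those averaging 1 or more in log2 CPM, passing or not. The comparison, lists and rules were chosen with earlier results of these data known. Titles number the replicates without saying what a number marks. In 4 of 4 same-numbered Rodeo and glyphosate pairs the deviations from the group means had a correlation over 0.1 (0.107 to 0.207). The 12 other pairs spanned -0.158 to 0.109, so the ranges overlapped slightly. On this ground alone the numbers were taken to pair libraries, and the count under the block stands with the main one. Control numbers, which the block over 12 trunk libraries also used, entered no such correlation. No molecular identifiers are mentioned, so counting intervals cover counting error only.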

Additional observations from a re-analysis of the deposited data

Results flagged for a closer look

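In 30 groups of 4 libraries looked at for a library far from its group, 1 stood out, and chance alone gives about 1 in 20. LMB_Assem.11835.C1 was at 3.54 CPM in trunk glyphosate 2, below the 6.82, 7.01 and 7.02 CPM of the other trunk glyphosate libraries. That value still lay above all 4 Rodeo libraries, so without glyphosate 2 the contig kept its direction, as it had to.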

How the results depend on the processing

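Library totals, left-out controls, the block over 12 libraries and the paired test of library measures were added after seeing the data. Contigs called by edgeR between Rodeo and glyphosate in trunk kidney numbered 0, but 3 without the filter on low counts, 374 with DESeq2, 158 in the unmatched libraries and 0 to 38 with 1 library left out. For an unadjusted p under 0.05 the counts were 5253, 5281 and 1385 in those settings and 2113 (without glyphosate 4) to 6935 (without glyphosate 1) with a library left out, against 3294. Without Rodeo 1 the count was 2191. The unmatched libraries hold Rodeo 3 as the only Rodeo library, which could only be taken to vary as glyphosate 2 and glyphosate 3 did. Both counts of that setting therefore cannot show a difference between the products. With the replicate number as a block, 0 contigs passed over the 8 libraries and 1 over the 12 trunk libraries, and the trunk-enriched median was 0.000757 over the 8. The block changed the call of no named contig tested with it. As pairs it changed the call of none of 6 library measures, but it could not, as 4 pairs allow no p under 0.125 in the exact sign-flip test. The block was not run for head kidney or trunk minus head. Intervals within 2-fold fell to 1 contig in the unmatched libraries. With library totals the head-enriched median was 0.66 and the trunk-enriched median 0.33. With a library left out, the product difference ranged from -0.0329 to 0.191 for distance, -0.189 to 0.651 percentage points for the LMB_Assem share and -0.0829 to 0.156 for head on/off contigs, turning its sign in each. Head kidney calls were 143 without the filter, 147 with DESeq2 and 0 to 20 with a library left out, 20 without head glyphosate 4 and 2 without head Rodeo 2. Trunk minus head gave 329 with DESeq2 and 0 to 7 with a library left out, 7 without trunk glyphosate 1. The cause of these shifts was not tested. Depth limits the rarest contigs, under 0 on the log2 CPM scale, whose intervals reached a median of 1.73 to either side.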
